A study of Mus musculus with 43 samples.

Results

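The potassium channel genes outside the Kv1 and Kv3 subfamilies numbered 69 here. They were the protein-coding genes whose symbol starts with Kcn followed by b, d, f, g, h, j, k, m, n, q, s, t, u or v, out of 56980 genes counted, 21959 of them protein-coding. By family the 69 were 15 inward rectifiers (Kir), 14 K2P leak channels, 8 EAG, ELK and ERG channels, 5 Kv7 channels, 5 BK alpha or beta subunits, 5 silent subunits of Kv5 and Kv6 and 5 of Kv8 and Kv9, 4 SK and IK channels, 3 Kv4 channels, 3 Slack, Slick and Slo3 channels and 2 Kv2 channels. A further 4 genes with a matching symbol were not protein-coding and were left out. Kcnd2, which encodes the Kv4.2 subunit, served as the reference member.

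RNA-seq was performed on GFP+ cells sorted by flow cytometry from the somatosensory cortex of C57BL/6JRccHsd mice, after electroporation of embryonic progenitors in utero had delivered the GFP plasmid to the cohort that forms layers 2 and 3. The WT groups were E19 females (L2/3F, n = 4) and males (L2/3M, n = 4), P4 females (n = 3) and males (n = 3), and P7 females (n = 2) and males (n = 3). Cux1 KO libraries at E19 (4 females and 4 males) came from germline Cux1 ΔC/ΔC embryos, a genotype that is lethal around birth. Cux1 KO libraries at P4 (2 males) came instead from Cux1 f/Δ23 animals that received a CRE plasmid with the GFP plasmid, so that the remaining floxed copy was deleted in the electroporated cells alone. Cux2 KO libraries at E19 (4 females and 4 males) and at P4 (3 females and 3 males) came from germline Cux2-/- animals. The 2 Cux1 models therefore differ in allele, in the timing of deletion and in the CRE plasmid. E19 libraries were sequenced in a first round and the P4 and P7 libraries in a second, so that the stage difference between E19 and P4 and the sequencing round cannot be told apart.

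Potassium channels set the resting potential of a neuron and end its action potentials. Kv4 channels carry the fast A-type current of dendrites, Kv7 channels the slow M-current that limits repetitive firing, and SK and BK channels open with intracellular calcium. Kir and K2P channels hold the membrane near rest, in neurons and above all in astrocytes, where Kir4.1 and Kir5.1 take up the potassium that firing neurons release.

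Libraries held 13321095 to 60559585 assigned reads, and the 69 genes together took 0.0405% to 0.100% of them. Single values therefore rested on few reads, and 3 reads, taken as the floor of detection, corresponded to 0.0438 to 0.235 CPM. Of the 69 genes, 46 had a read in all WT libraries of E19, 25 in all those of P4 and 38 in all those of P7. A further 3 (Kcnj1, Kcnk16 and Kcnv2) were at 0 in the whole set of 43 libraries. The 2 Cux1 KO libraries at P4 held 31 and 37 of the genes, against 36 to 58 in the other P4 libraries. These ranges overlapped. Both stood apart in genes of all kinds, with 17049 and 19115 detected against 20844 to 23736 in the other P4 libraries of males. Gene-level counts of Cux1 and Cux2 cannot check the alleles, since both transcripts were still counted in their knock-outs (Cux1 311.8 ± 26.9 CPM in Cux1 KO L2/3F at E19 against 423 ± 65.7 CPM in WT, SD, n = 4 each, but 125.8 ± 60.2 CPM in Cux1 KO L2/3M at P4, n = 2, against 114.8 ± 36.8 CPM in WT, n = 3). Cux2 was at 349.5 ± 56.2 CPM in Cux2 KO L2/3F at E19 against 457 ± 63.0 CPM in WT, and at P4 at 37.9 ± 11.6 against 33.2 ± 4.57 CPM in females and 44.1 ± 14.2 against 36.5 ± 8.59 CPM in males. The count files do not separate the deleted exons.

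**Figure D1:**
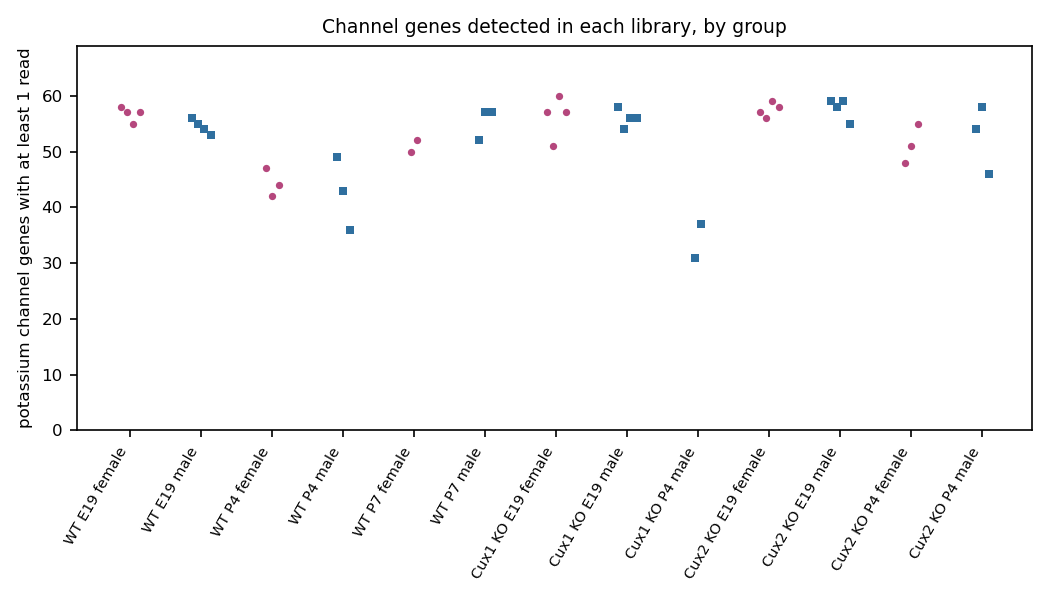
Number of the 69 potassium channel genes with at least 1 read in each library (vertical axis), by group (horizontal axis), where circles are libraries from females and squares are libraries from males. The 2 Cux1 KO libraries at P4 hold 31 and 37 of the genes.

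The labelled cell type was checked against its markers, whose levels also differed between the stages. In the WT libraries the summed level of 15 genes of upper-layer excitatory neurons was 5717 ± 704 CPM at E19 (n = 8), 1294 ± 115 CPM at P4 (n = 6) and 930.1 ± 117 CPM at P7 (n = 5). Slc17a7, the vesicular glutamate transporter of cortical excitatory neurons, was at 4.52 to 14.8 CPM at E19 and at 0.0 to 0.304 CPM at P4. Neurod2, a transcription factor of cortical excitatory neurons, was at 537.6 to 821 CPM at E19 and at 12.1 to 28.9 CPM at P4. The summed level of 9 genes of astrocytes and radial glia went the other way, from 2056 to 2966 CPM at E19 to 4191 to 7259 CPM at P4 and 8641 to 11520 CPM at P7. Gja1, the astrocyte connexin, was at 13.9 to 38.1 CPM at E19 and at 535.5 to 904 CPM at P4. For 8 genes of the oligodendrocyte lineage the sums were 648 ± 97.5, 2258 ± 932 and 5401 ± 776 CPM at the 3 stages, for 8 endothelial genes 23.9 ± 12.04, 227 ± 133 and 284 ± 130.0 CPM, and for 8 mural genes 115 ± 22.3, 292 ± 124 and 602 ± 326 CPM. At P4 and P7 these levels go against the labelled cell type, excitatory neurons, so the results of those stages describe the sorted GFP+ libraries and not a checked neuronal population. In bulk samples fewer cells of a type and less RNA per cell cannot be told apart, and the part of these shifts in the channel results was not tested.

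To compare genes with each other, CPM were divided by exon length. At E19 the highest of the 69 genes in WT libraries was Kcnk2, the mechanosensitive leak channel TREK-1, at 18.5 ± 1.09 CPM per kb of exon (n = 8). Among the next were Kcnj10 at 9.52 ± 1.98, Kcnj11 at 7.65 ± 2.47 and Kcnk10 (TREK-2) at 6.70 ± 0.783 CPM per kb. Kcnd3 (6.60 ± 0.705) and Kcnd2 (6.55 ± 1.36 CPM per kb) came after them, and from Kcnj10 down each of these genes lay within the SD of the one named before it. At P7 the order was led by Kcnk1 (34.3 ± 9.49 CPM per kb, n = 5), Kcnj10 (33.4 ± 7.82) and Kcnj16 (27.5 ± 10.1), whose values overlapped. Kcnk2 at 11.3 ± 2.27 CPM per kb and Kcnd2 at 9.34 ± 4.91 CPM per kb were lower. Kcnj16 had moved from rank 44 to rank 3. Among all protein-coding genes with a length, Kcnd2 stood at percentile 73.5 at E19 and 81.6 at P7, and Kcnj11 at 76.2 and 30.5.

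Which members changed between the E19 and P4 libraries of WT was tested next, with sex as a covariate. Of 52 genes with enough reads to be tested, 22 passed an adjusted p of 0.05 with a log2 fold change beyond 1 (edgeR quasi-likelihood test, Benjamini-Hochberg over all 20091 genes tested). 4 rose and 18 fell. In this comparison 45.9% of all tested genes were called, 22.6% higher and 23.3% lower. The share of members called, 42.3%, was close to that background, and most of the members called were lower. The same background applies to the counts by subfamily given below, each of which rests on few genes. Without adjustment 25 members (48.1%) and 69.8% of all genes had a p under 0.05. The median log2 fold change was -1.07 over the 52 genes and 0.04 over all genes tested. The summed level of the 69 genes was 902 ± 103 CPM at E19, 559.7 ± 101 CPM at P4 and 783 ± 153 CPM at P7.

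**Figure D2:**
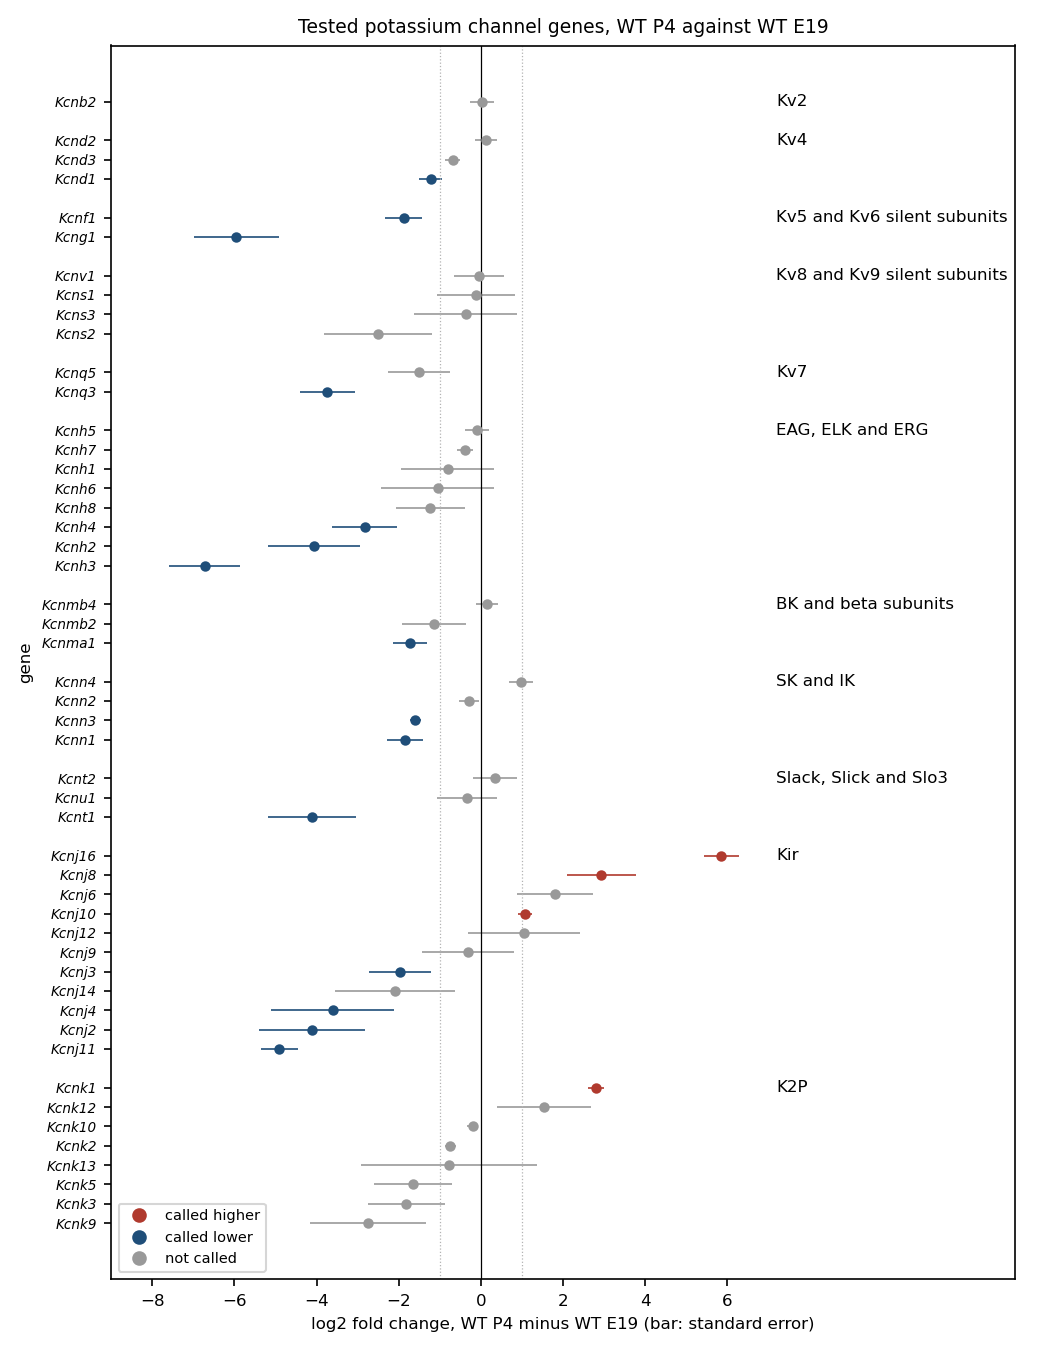
Log2 fold change of tested potassium channel genes between WT P4 and WT E19 (horizontal axis), grouped by subfamily, with bars for the standard error. Red points are called higher, blue points called lower and grey points not called, and dotted lines mark a log2 fold change of 1 in either direction. EAG, ELK and ERG channels and the Kv5 and Kv6 silent subunits lie to the left, and the members furthest to the right are Kcnj16, Kcnj8 and Kcnk1.

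Among the Kv7 genes, Kcnq3 encodes a subunit of the neuronal M-channel. Kcnq3 lay between 56.5 and 98.5 CPM at E19 (median 79.8) and between 0.845 and 22.1 CPM at P4 (median 3.00), with no overlap (log2 fold change -3.74, SE 0.67, adjusted p = 0.00017). In the 5 P7 libraries it was at 1.25, 5.33, 5.52, 8.89 and 3.69 CPM, within the range of the P4 libraries. Kcnq5 had a mean of 6.14 CPM at E19 and 3.10 CPM at P4 and did not pass (adjusted p = 0.090), and Kcnq1 had too few reads to be tested.

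**Figure D3:**
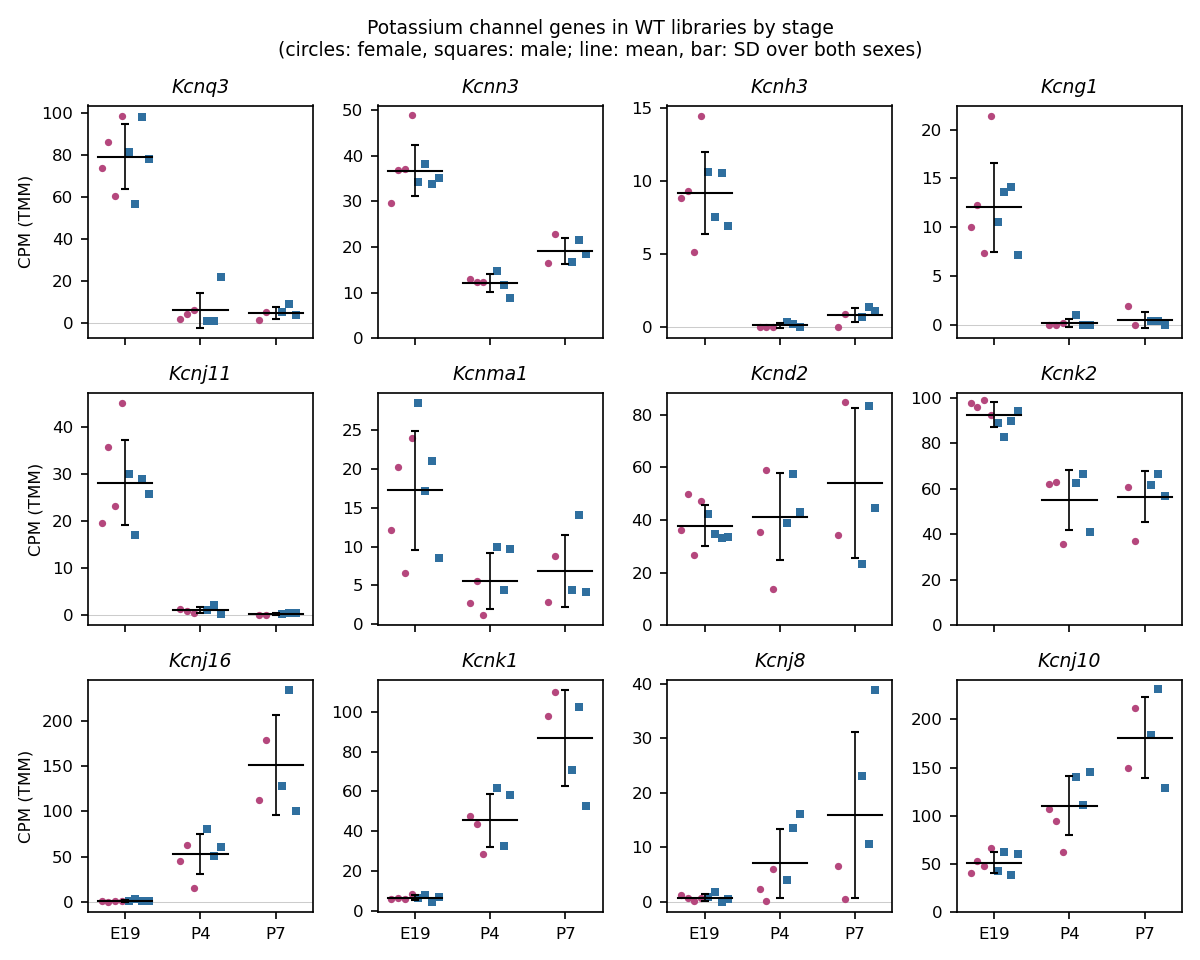
Level of 12 potassium channel genes in each WT library (vertical axes, CPM scaled by TMM) at E19, P4 and P7, where circles are females, squares are males, lines are means and bars are SD. Kcnq3, Kcnh3, Kcng1 and Kcnj11 are high at E19 and low at both later stages, whereas Kcnj16 and Kcnk1 are low at E19 and high at P7.

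Among the EAG, ELK and ERG channels, which carry slowly gated currents near the firing threshold, 3 of 8 tested genes fell and none rose. Kcnh3, an ELK channel of forebrain neurons, was at 5.15 to 14.5 CPM at E19 (median 9.07) and at 0 to 0.342 CPM at P4 (median 0). It was the member with the most negative log2 fold change of those tested, -6.72 (SE 0.87, adjusted p = 7.05e-06), a value that rests on very few reads at P4. Kcnh2, the ERG1 channel, was at 14.2 to 22.9 CPM at E19 and at 0 to 5.87 CPM at P4 (-4.05, SE 1.12, adjusted p = 0.0051). Both genes had libraries that did not overlap between the stages. Kcnh4 fell from 8.62 ± 3.00 to 1.21 ± 1.05 CPM (-2.82, adjusted p = 0.0056). Kcnh7, the ERG3 channel, had 23.6 ± 5.33 CPM at E19 and 18.1 ± 4.61 CPM at P4 and did not pass (-0.39, adjusted p = 0.097), and 18.6% of its exon bases overlap Gca on the other strand. The summed level of the 8 genes was 70.0 ± 9.29, 27.7 ± 5.33 and 15.1 ± 4.41 CPM at the 3 stages.

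Silent subunits form no channel alone and change the gating of Kv2 channels. Both tested genes of the Kv5 and Kv6 group fell. Kcng1 (Kv6.1) was at 7.16 to 21.4 CPM at E19 (median 11.4) and at 0 to 0.989 CPM at P4 (median 0), with no overlap (-5.96, SE 1.03, adjusted p = 0.00012). Kcnf1 (Kv5.1) went from 6.95 ± 2.16 to 2.00 ± 1.73 CPM (-1.87, adjusted p = 0.0018). The Kv2 gene Kcnb2 was at 8.06 ± 1.82 and 8.12 ± 3.94 CPM. None of the 4 tested Kv8 and Kv9 subunits passed.

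Of the 3 Kv4 genes 1 fell, and their summed level was 111 ± 11.5 CPM at E19 and 85.2 ± 27.7 CPM at P4, with overlapping libraries. Kcnd2 was at 26.6 to 49.8 CPM at E19 (median 35.4), at 13.7 to 58.9 CPM at P4 (median 40.9) and at 34.4, 84.8, 23.3, 83.4 and 44.4 CPM in the 5 P7 libraries. The 3 ranges overlapped widely, and the log2 fold change between E19 and P4 was 0.13 (SE 0.26, adjusted p = 0.68). Kcnd3 (Kv4.3) went from 65.7 ± 7.01 to 40.7 ± 13.4 CPM, a difference past the adjusted p and short of the fold threshold (-0.68, adjusted p = 0.0044). Kcnd1 (Kv4.1), the only member on chromosome X, fell from 7.71 ± 1.97 to 3.29 ± 1.47 CPM (-1.22, adjusted p = 0.0013).

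Of the BK, SK, IK, Slack, Slick and Slo3 genes, with the BK beta subunits, 4 of 10 tested fell and none rose. Kcnn3 (SK3) was at 29.7 to 49.0 CPM at E19 and at 8.77 to 14.8 CPM at P4, with no overlap (-1.59, SE 0.14, adjusted p = 9.5e-08). Kcnn1 (SK1) fell from 12.7 ± 3.16 to 3.54 ± 1.99 CPM (-1.85, adjusted p = 0.0015). Kcnma1, the pore of the BK channel, fell from 17.3 ± 7.64 to 5.58 ± 3.56 CPM (-1.73, adjusted p = 0.0020). Kcnt1 (Slack), opened by sodium, fell from 4.23 ± 1.51 to 0.250 ± 0.439 CPM (-4.11, adjusted p = 0.0037). Kcnn2 (SK2) was at 22.4 ± 3.68 and 18.2 ± 8.07 CPM and did not pass (adjusted p = 0.33). Kcnn4, the intermediate-conductance channel, was at 1.50 ± 0.267 and 2.95 ± 0.910 CPM with no overlap and a log2 fold change of 0.98 (adjusted p = 0.0069), just under the threshold.

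The inward rectifiers split, with 3 of 11 tested genes higher and 4 lower at P4. Kcnj16 (Kir5.1) was at 0.0644 to 2.67 CPM at E19 (median 0.837), at 15.5 to 80.9 CPM at P4 (median 55.5) and at 113, 179, 128, 234 and 100.5 CPM in the P7 libraries. Every P4 library was above every E19 library, and the log2 fold change, 5.86 (SE 0.43, adjusted p = 1.9e-08), was the highest among the members tested. Kcnj10 (Kir4.1), with which Kir5.1 forms channels in astrocytes, was at 38.9 to 66.3 CPM at E19 (median 50.5) and at 62.7 to 145 CPM at P4 (median 109.5), so that the ranges met (1.08, SE 0.17, adjusted p = 6.0e-05). Both genes are textbook astrocyte channels, and they rose beside the astrocyte markers given above. The part of the cell mixture in their change was not tested.

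ATP-sensitive potassium channels pair a Kir6 pore with a sulfonylurea receptor. Kcnj11 (Kir6.2), the neuronal pore, was at 16.9 to 45.0 CPM at E19 (median 27.3) and at 0.219 to 1.98 CPM at P4 (median 0.837), with no overlap (-4.91, SE 0.45, adjusted p = 1.9e-07). Its receptor Abcc8 (SUR1) went from 31.2 to 1.16 CPM (-4.86, adjusted p = 0.00055). The other pore, Kcnj8 (Kir6.1), a channel of mural cells, was at 0 to 1.80 CPM at E19 and at 0.0995 to 16.1 CPM at P4 (2.93, SE 0.84, adjusted p = 0.0065), and its receptor Abcc9 (SUR2) was at 0.960 and 3.19 CPM without passing (adjusted p = 0.089). Kcnj8 varied widely among the P4 libraries, in which the summed mural markers ranged from 166 to 490 CPM. The part of mural cells in that spread was not tested.

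Kcnj2 (Kir2.1) fell from 5.64 ± 2.32 to 0.583 ± 1.40 CPM (-4.11, adjusted p = 0.011). Kcnj3, which encodes the G protein-gated subunit GIRK1, fell from 14.0 ± 4.09 to 4.15 ± 5.52 CPM (-1.97, adjusted p = 0.033), and Kcnj4 (Kir2.3) from 1.80 ± 1.24 to 0.283 ± 0.577 CPM (-3.61, adjusted p = 0.046). Libraries of the 3 genes overlapped between the stages. The last calls depended on single libraries, since the adjusted p reached 0.064 for Kcnj3 without the third WT P4 female and 0.096 for Kcnj4 without the first. As a group the 15 Kir genes summed to 106 ± 18.1 CPM at E19, 182 ± 58.0 CPM at P4 and 358 ± 89.9 CPM at P7.

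**Figure D4:**
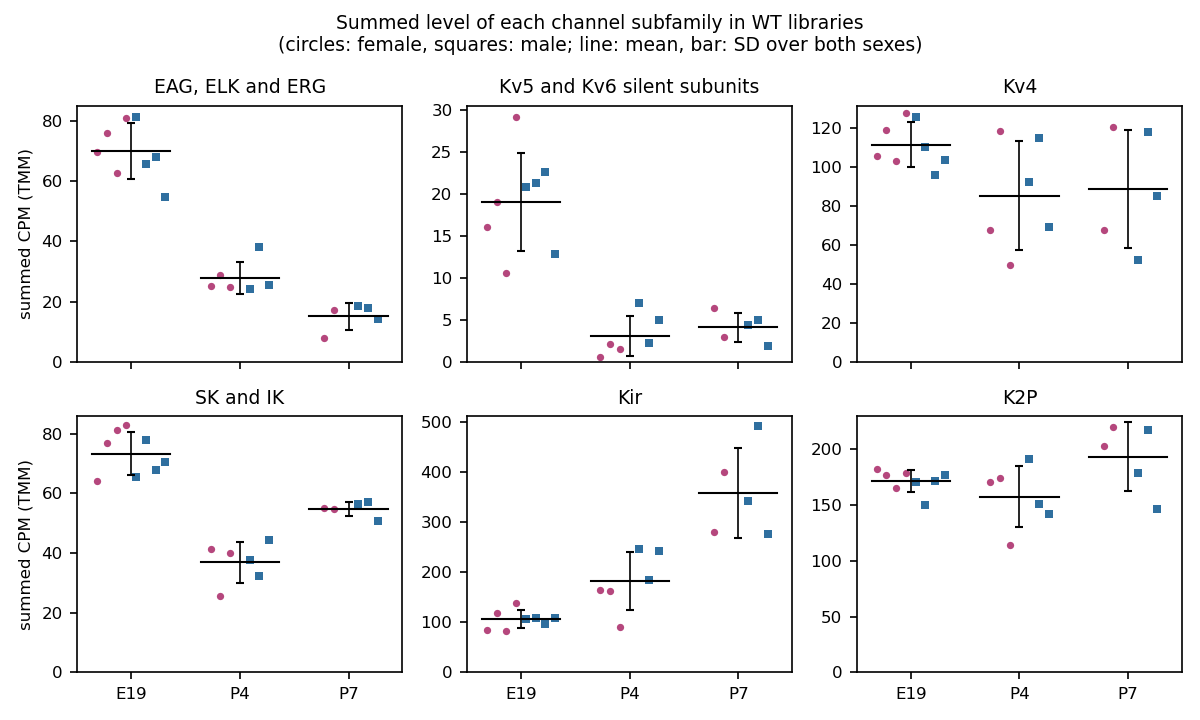
Summed level of the genes of 6 potassium channel subfamilies in each WT library (vertical axes, CPM scaled by TMM) at E19, P4 and P7, with circles for females, squares for males, lines for means and bars for SD. The sum of the EAG, ELK and ERG channels goes from 70.0 to 27.7 CPM between E19 and P4 and the Kir sum from 106 to 358 CPM between E19 and P7, while the K2P and Kv4 sums overlap across stages.

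Of 8 tested K2P leak channels 1 rose and none fell. Kcnk1 (TWIK-1) was at 4.41 to 8.53 CPM at E19 (median 6.32) and at 28.6 to 61.9 CPM at P4 (median 45.6), with no overlap (2.80, SE 0.20, adjusted p = 1.1e-08). Kcnk2 was at 82.5 to 99.0 CPM at E19 (median 93.3) and at 35.6 to 66.6 CPM at P4 (median 62.1). These libraries did not overlap either, but the log2 fold change stayed short of the threshold (-0.74, SE 0.14, adjusted p = 0.00022). Kcnk10 was at 58.8 ± 6.87 and 51.3 ± 10.5 CPM (adjusted p = 0.21). The sum over the 14 genes was 171.5 ± 10.1, 157 ± 27.3 and 193 ± 31.0 CPM at the 3 stages, while its leading gene per kb of exon passed from Kcnk2 at E19 to Kcnk1 at P4.

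Auxiliary subunits and binding partners of these channels were read from a list of 25 genes, of which 18 could be tested between E19 and P4. Of them 3 rose and 3 fell, with a median log2 fold change of 0.34. Among all genes tested in this comparison 22.6% were called higher and 23.3% lower. Kcnip3 and Kcnip1, calcium-binding subunits of Kv4 channels, rose from 69.3 to 185 CPM (1.42, adjusted p = 1.5e-08) and from 8.02 to 21.3 CPM (1.42, adjusted p = 6.0e-05). Vapa, which tethers Kv2 clusters to the endoplasmic reticulum, rose from 179 to 531 CPM (1.57, adjusted p = 4.0e-10). Amigo1, the Kv2 accessory protein, fell from 50.7 to 9.33 CPM (-2.50, adjusted p = 6.5e-08), and Ank3, the ankyrin that anchors Kv7 channels at the axon initial segment, from 185 to 45.9 CPM (-2.02, adjusted p = 2.6e-08). Abcc8, given above, was the third to fall.

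The promoters of 4 members are printed, 1 that fell between E19 and P4 (Kcnq3), 2 that rose (Kcnj16 and Kcnk1) and the reference member Kcnd2, which did not pass. Each run gives the 250 bases before the start of the Ensembl canonical transcript, from GRCm39, 5′ to 3′ on the strand of the gene, with CpG dinucleotides in capitals. In order they are Kcnq3 at chr15:66158492-66158741 on the minus strand, Kcnd2 at chr6:21214616-21214865 on the plus strand, Kcnj16 at chr11:110858593-110858842 on the plus strand and Kcnk1 at chr8:126721593-126721842 on the plus strand.
Kcnq3: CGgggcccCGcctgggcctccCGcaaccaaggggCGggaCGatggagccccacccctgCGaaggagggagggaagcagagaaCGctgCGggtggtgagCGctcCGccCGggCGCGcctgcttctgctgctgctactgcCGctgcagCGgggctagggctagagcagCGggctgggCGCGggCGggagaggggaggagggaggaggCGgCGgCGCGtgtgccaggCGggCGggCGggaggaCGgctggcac
Kcnd2: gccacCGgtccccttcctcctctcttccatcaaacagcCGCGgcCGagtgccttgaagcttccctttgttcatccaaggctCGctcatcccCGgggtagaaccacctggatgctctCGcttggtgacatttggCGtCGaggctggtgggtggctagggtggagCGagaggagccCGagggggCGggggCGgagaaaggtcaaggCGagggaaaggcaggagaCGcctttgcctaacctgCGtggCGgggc
Kcnj16: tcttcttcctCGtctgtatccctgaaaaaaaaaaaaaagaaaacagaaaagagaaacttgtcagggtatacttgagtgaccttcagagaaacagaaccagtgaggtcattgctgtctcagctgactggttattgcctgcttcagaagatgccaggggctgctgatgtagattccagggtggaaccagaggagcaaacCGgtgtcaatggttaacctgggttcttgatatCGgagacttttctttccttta
Kcnk1: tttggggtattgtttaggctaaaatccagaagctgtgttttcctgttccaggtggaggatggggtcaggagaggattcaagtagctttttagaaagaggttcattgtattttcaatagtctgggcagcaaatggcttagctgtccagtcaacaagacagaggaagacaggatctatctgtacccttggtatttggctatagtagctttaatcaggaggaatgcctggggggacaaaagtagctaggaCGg

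These windows held 27 CpG dinucleotides for Kcnq3 and 17 for Kcnd2, but 3 for Kcnj16 and 1 for Kcnk1. Kcnj10 and Kcnj8, which also rose, held 18 and 11, and Kcnf1, which fell, held 1. Over all members the ranges overlapped. The median was 7 CpG (1 to 18) in the 4 that rose and 11.5 (1 to 33) in the 18 that fell. It was highest, at 15.5 (3 to 29), in the 30 tested members not called. Among all protein-coding genes the medians were 10 for those that rose, 13 for those that fell and 12 for those not called. The letters ATCGAT and ATCAAT, searched on both strands, occurred in 1 member window each, against 0.799% and 6.59% of all 21770 windows. CCAAT occurred in 17 member windows (24.6%) and in 36.4% of all windows, and CGCGCG in 10 (14.5%) and in 8.86% of all windows. A match or its absence describes only these letters.

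Members were then compared between P4 and P7 in WT. Of 62 tested genes 2 rose and none fell, where 2.05% of all tested genes were called and 1.42% were called higher. A fit of all groups together called 9 members here and 1595 genes in all. With a replicate block 1 member was called. At an unadjusted p under 0.05 there were 11 members (17.7%), against 22% of all genes. Kcnj16 rose again, from 52.6 ± 21.9 to 150.8 ± 55.1 CPM with no overlap (1.51, SE 0.35, adjusted p = 0.032). Kcnq1, the Kv7 subunit of heart and epithelia, had no read in the 6 P4 libraries and 0.857, 1.82, 0.768, 0.466 and 2.15 CPM in the P7 libraries, at least 14.9-fold higher (adjusted p = 0.018). Of the exon bases of Kcnq1, 23.5% overlap those of genes on the opposite strand, summed over Kcnq1ot1 and 4933417O13Rik. Both calls depended on single libraries, and without the second WT P7 female the adjusted p was 0.095 for Kcnj16 and 0.059 for Kcnq1. Without the first WT P7 female no member was called.

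Several members that rose by P4 had higher means again at P7 without passing. Kcnk1 was at 45.4 ± 13.4 and 86.8 ± 24.0 CPM (0.93, adjusted p = 0.057) and Kcnj10 at 110 ± 30.5 and 181 ± 42.4 CPM (0.71, adjusted p = 0.069). Kcnn3, which fell by P4, was at 8.77 to 14.8 CPM at P4 and at 16.5 to 22.8 CPM at P7 (0.66, adjusted p = 0.052). Kcnh7 went the other way, from 18.1 ± 4.61 to 6.83 ± 3.26 CPM (-1.37, adjusted p = 0.071). Kcnd2 differed by 0.39 on the log2 scale (SE 0.42, adjusted p = 0.67). Summed microglial markers were at 57.6 to 92.95 CPM at P4 and 260.5 to 1275 CPM at P7, and their part in these values was not tested.

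Whether the members differ between L2/3F and L2/3M was tested in WT libraries at each stage. No member passed in edgeR's quasi-likelihood test, which called 0.0461%, 0.0% and 0.0247% of all genes in order of stage. DESeq2 called no member either, and 9, 85 and 12 genes in all. At P4 edgeR called no gene of any kind, so its lack of a member call there is not particular to the channels. It missed even the X- and Y-linked genes that the paper reports as most different between the sexes at all stages. The edgeR result at P4 therefore cannot show that the channels were alike in the sexes. An unadjusted p under 0.05 was seen in 2 of 47 tested members at E19 (background 3.67%), 1 of 42 in the P4 libraries (7.28%) and 2 of 57 in the P7 libraries (4.36%). The member with the smallest p at E19 was Kcnv1, the silent subunit Kv8.1, at 4.20, 3.73, 0.636 and 4.51 CPM in females and 7.23, 6.90, 8.999 and 4.72 CPM in males (-1.11, adjusted p = 0.99). At P4 it was Kcnj10, at 107, 94.2 and 62.7 CPM in females and 140.5, 112 and 145 CPM in males (-0.59, adjusted p = 0.67). At P7 it was Kcnk3 (TASK-1), at 6.19 ± 1.42 CPM in 2 females and 1.94 ± 0.704 CPM in 3 males (1.66, adjusted p = 1.0). In each of these genes males and females did not overlap, and the differences did not survive correction. Kcnd2 was at 39.9 ± 10.7 CPM in females and 35.9 ± 4.28 CPM in males at E19 (0.13, adjusted p = 0.99), with differences of -0.36 at P4 (adjusted p = 0.93) and 0.24 at P7 (adjusted p = 1.0).

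Loss of Cux1 at E19 was compared with WT in each sex and in both. No member passed in the edgeR test in females (47 tested, 0.0576% of all genes called), in males (45 tested, 0.0979%) or in both sexes together (48 tested, 0.24%). DESeq2 called none in females, 1 in males (lower) and none in both, and 29, 73 and 31 genes in all. At an unadjusted p under 0.05 there were 4 members in females (8.51%, against 6.87% of all genes), 11 in males (24.4%, against 10.4%) and 11 in both sexes (22.9%, against 12.6%). Of the last 11, 9 were lower in Cux1 KO, where 6.2% of all genes were lower at that p.

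The members with the smallest p in males were low-level neuronal subunits. Kcnv1 was at 3.52, 3.49, 3.04 and 2.58 CPM in Cux1 KO L2/3M and at 7.23, 6.90, 8.999 and 4.72 CPM in WT L2/3M (-1.17, SE 0.24, adjusted p = 0.14). Kcnk9 (TASK-3) was at 3.40, 1.23, 1.37 and 2.64 CPM in Cux1 KO and at 4.84, 5.80, 5.03 and 3.72 CPM in WT (-1.19, adjusted p = 0.27). Kcnf1 was at 4.88, 2.21, 3.85 and 5.60 CPM in Cux1 KO and at 10.3, 7.69, 8.50 and 5.65 CPM in WT (-0.99, adjusted p = 0.27). For all 3 genes every Cux1 KO library was below every WT library, without passing the correction. In females the smallest p was that of Kcnk3, at 2.05 ± 0.817 CPM in Cux1 KO and 4.60 ± 1.01 CPM in WT (-1.15, adjusted p = 0.42). Kcnd2 differed by -0.06 on the log2 scale over both sexes (adjusted p = 0.87).

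Loss of Cux2 at E19 gave no call either, in females (50 tested, 0.0287% of all genes called), in males (46 tested, 0.121%) or in both (52 tested, 0.109%). DESeq2 called no member, and 22, 66 and 25 genes in all. At an unadjusted p under 0.05 there were 4 members in females (8%, against 4.62% of all genes), 4 in males (8.70%, against 7.94%) and 12 in both sexes together (23.1%, against 8.75% of all genes), all 12 higher in Cux2 KO, where 5.25% of all genes were higher at that p. Kcnh2 was at 23.8, 22.2, 25.7 and 21.2 CPM in Cux2 KO L2/3M and at 19, 14.2, 17 and 15.9 CPM in WT L2/3M, with no overlap (0.47, SE 0.14, adjusted p = 0.49). Over both sexes it was at 23.4 ± 2.18 CPM in Cux2 KO and 18.6 ± 2.90 CPM in WT (0.34, adjusted p = 0.25). Kcnk1 was at 8.91 ± 1.66 and 6.49 ± 1.26 CPM (0.45, adjusted p = 0.35). Kcnd2 differed by 0.01 on the log2 scale (adjusted p = 0.99).

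At P4 loss of Cux2 gave no edgeR call in females (50 tested, 0.0% of all genes called), males (53 tested, 0.0%) or both (60 tested, 0.0503%). Since edgeR called no gene of any kind in either sex alone, that result is not particular to the channels. DESeq2 called no member either, and 42, 75 and 13 genes in all. Members under an unadjusted p of 0.05 were 3 in females, 0 in males and 1 in both, against 7.39%, 5.76% and 6.28% of all genes. Kcnk13 and Kcnq1 had no read in the 3 WT females while in Cux2 KO L2/3F they had means of 1.16 and 0.931 CPM, which puts them at least 10.99-fold and at least 8.85-fold higher (adjusted p = 0.45 for each). In males Kcnk13 had means of 1.37 CPM in Cux2 KO and 1.055 CPM in WT, with overlapping libraries. Kcnq1 had a mean of 0.429 CPM in Cux2 KO males and no read in WT males, and had too few reads to be tested there. Over both sexes Kcnd2 was at 48.1 ± 11.5 CPM in Cux2 KO and 41.2 ± 16.6 CPM in WT (0.22, adjusted p = 1.0).

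The mutants were then compared with each other at E19. In females 5 of 49 tested members were higher in Cux2 KO than in Cux1 KO and none lower, where 1.34% of all genes were called and 1.16% were called higher. Kcnma1 was at 27.6, 16.7, 18.3 and 17.7 CPM in Cux2 KO L2/3F, at 8.58, 8.29, 10.5 and 8.74 CPM in Cux1 KO L2/3F and at 12.2, 20.3, 6.61 and 23.9 CPM in WT L2/3F (1.16 between the mutants, SE 0.18, adjusted p = 0.0058). For this gene the mutants did not overlap, and WT libraries lay both below the Cux1 KO range and among the Cux2 KO values.

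Kcnf1 was at 7.09, 10.5, 7.43 and 14.3 CPM in Cux2 KO L2/3F and at 5.70, 2.68, 4.05 and 2.42 CPM in Cux1 KO L2/3F (1.41, SE 0.31, adjusted p = 0.041). Kcnv1 was at 6.15, 5.20, 4.55 and 4.93 CPM in Cux2 KO and at 2.88, 2.24, 2.42 and 2.42 CPM in Cux1 KO (1.07, SE 0.23, adjusted p = 0.038). Kcnj12 (Kir2.2) was at 0.723, 1.14, 1.26 and 1.03 CPM in Cux2 KO and at 0.262, 0.187, 0.113 and 0.0620 CPM in Cux1 KO (2.70, SE 0.54, adjusted p = 0.025), the Cux1 KO values corresponding to a handful of reads. Over all tested members 21 (42.9%) had an unadjusted p under 0.05, 20 of them higher in Cux2 KO, against 10.8% of all genes (6.96% higher), and the median log2 difference was 0.40 against -0.001 over all genes. The calls depended on the libraries and the fit. Without the third Cux1 KO female 1 member was called, with a replicate block 1, and in a fit of all 6 E19 groups together none was. Summed markers of intermediate progenitors were at 393 to 605 CPM in Cux2 KO L2/3F and 703 to 752 CPM in Cux1 KO L2/3F, and their part was not tested.

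**Figure D5:**
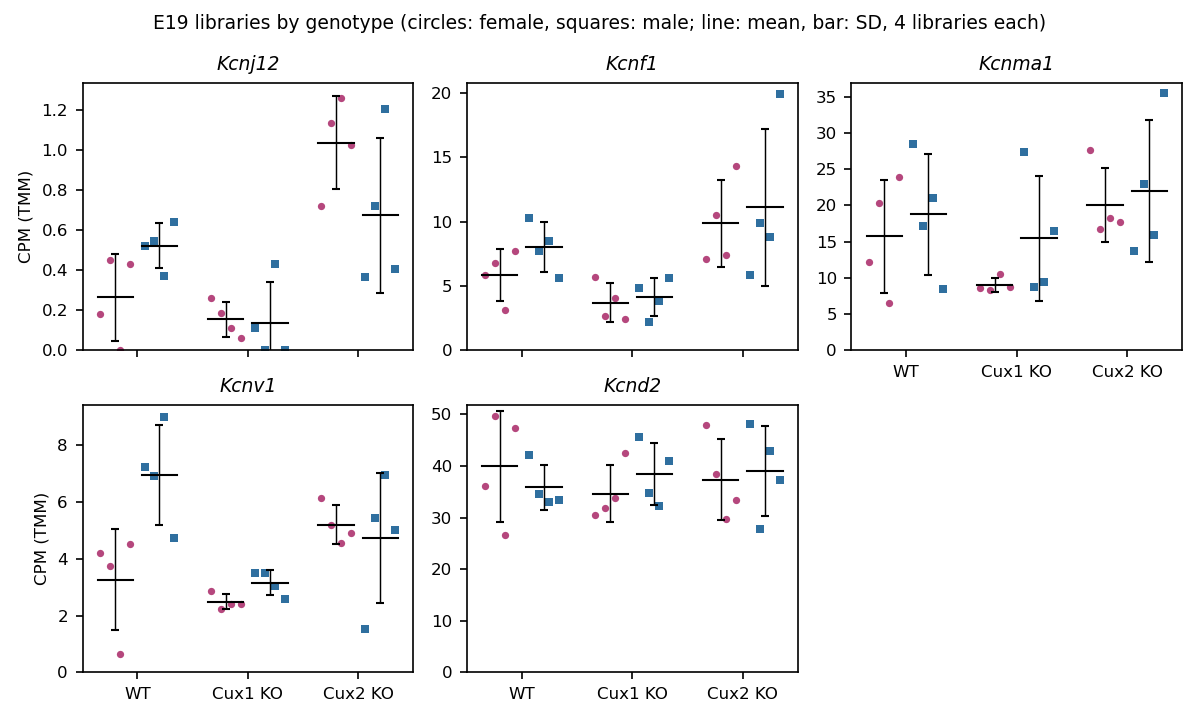
Level of 5 potassium channel genes in each E19 library (vertical axes, CPM scaled by TMM) by genotype (horizontal axes), with circles for females, squares for males, lines for means and bars for SD over 4 libraries. In females the Cux2 KO libraries lie above the Cux1 KO libraries for every gene shown but Kcnd2, whose libraries overlap.

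In males at E19 no member passed between the mutants (46 tested, 0.378% of all genes called). An unadjusted p under 0.05 was seen in 7 (15.2%, against 14.3% of all genes), all higher in Cux2 KO. DESeq2 called 3 members there and 323 genes in all. Kcnf1 was at 5.87, 9.85, 8.80 and 19.9 CPM in Cux2 KO L2/3M and at 4.88, 2.21, 3.85 and 5.60 CPM in Cux1 KO L2/3M (1.44, SE 0.37, adjusted p = 0.15). Kcnj10 was at 65.9, 57.6, 84.3 and 57.4 CPM in Cux2 KO and at 40.4, 51.5, 49.2 and 47.3 CPM in Cux1 KO (0.51, adjusted p = 0.17). In both genes the mutants did not overlap. The log2 difference of Kcnd2 between the mutants was 0.12 in females (adjusted p = 0.89) and 0.04 in males (adjusted p = 0.94).

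Cux1 KO L2/3M at P4 were represented by the 2 libraries that stood apart in genes of all kinds detected. No member passed against WT L2/3M in the edgeR test (47 tested, 0.0% of all genes called). An unadjusted p under 0.05 was seen in 12 (25.5%, against 20.5% of all genes). DESeq2 called 10 members, 5 higher and 5 lower, and 2273 genes in all. A fit of all P4 groups together called 7 members and 2597 genes in all. The median log2 difference was 0.62 over the members and -0.18 over all genes tested. Kcnj8 had no read in either Cux1 KO library and was at 4.10, 13.6 and 16.1 CPM in WT, at least 102-fold lower (adjusted p = 0.076). Kcnd1 and Kcnn4 also had none, against 2.34, 5.29 and 3.54 CPM and 1.89, 4.15 and 3.92 CPM in WT (at least 33.8-fold and 30.1-fold lower, adjusted p = 0.079 for each).

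Other members were higher in these libraries. Kcnma1 was at 47.2 and 31.4 CPM in Cux1 KO and at 9.89, 4.38 and 9.66 CPM in WT (2.29, SE 0.50, adjusted p = 0.097). Kcnd2 was at 70.3 and 79.9 CPM in Cux1 KO and 38.8, 57.6 and 43.0 CPM in WT (0.68, adjusted p = 0.22). Kcnd3 was lower, at 8.39 and 14.2 CPM against 50.8, 51.7 and 22.7 CPM (-1.90, adjusted p = 0.14). None of these differences passed, although the libraries did not overlap. In this comparison 20 of the tested members (42.6%) did not overlap between the groups, as did 41.7% of all genes. Summed markers of upper-layer neurons were at 1947 and 2546 CPM in the 2 Cux1 KO libraries and had a mean of 1313 CPM in WT L2/3M, mural markers had means of 79.0 and 391 CPM and endothelial markers of 87.8 and 328 CPM, and their part was not tested.

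Against Cux2 KO L2/3M at P4, 1 of 58 tested members was called, where 2.98% of all genes were called and 2.24% higher. At an unadjusted p under 0.05 there were 18 members (31%), against 24.9% of all genes. Kcnd1 was at 2.62, 3.07 and 4.72 CPM in Cux2 KO and had no read in Cux1 KO, at least 31.5-fold higher in Cux2 KO (adjusted p = 0.049). Kcnd2 was at 43.2 ± 6.64 CPM in Cux2 KO and 75.1 ± 6.79 CPM in Cux1 KO and did not pass (-0.80, SE 0.20, adjusted p = 0.092). The call of Kcnd1 was lost without any 1 of the 3 Cux2 KO libraries (adjusted p = 0.10 to 0.14), with a replicate block (0.43) and without the filter on low counts (0.065). DESeq2 called 13 members here and 2617 genes in all, where edgeR called 589 genes in all.

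Whether an effect differed between sexes or stages was tested by interaction terms. In the edgeR test no member passed for Cux1 KO by sex at E19 (48 tested), Cux2 KO by sex at E19 (52 tested) or at P4 (60 tested), each with 0.0% of all genes called. None passed for sex by stage in WT between E19 and P4 (52 tested, 0.0747%). At an unadjusted p under 0.05 there were 2, 2, 2 and 8 members, against 3.81%, 3.78%, 7.27% and 11.2% of all genes. DESeq2 called 0, 0, 1 and 1 members, and 0, 0, 273 and 436 genes in all.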

How the data were processed

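Bulk RNA-seq of sorted GFP+ cells, labelled as L2/3 neurons, gave 43 libraries. The deposited values were raw read counts per gene, which the authors made by aligning reads with HISAT2 to GRCm39, with the Y chromosome masked for females, removing duplicate reads and counting with featureCounts on Ensembl genes. The strand setting is not given in the sources used here, so reads of overlapping genes on opposite strands may not be separable: 23 of the 69 members share exon bases with another gene. Groups came from the sample labels.

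Counts were analysed in R 4.3.3 with edgeR 4.0.16. Each comparison took its own groups, kept genes by filterByExpr, scaled by TMM and used the quasi-likelihood test with Benjamini-Hochberg adjustment over all genes tested. A call needed an adjusted p under 0.05 and a log2 fold change beyond 0.5 at E19 or 1 at P4 and P7, as in the study, 1 was also used between stages, and interaction terms the adjusted p alone. SE is the log2 fold change divided by the root of F. Comparisons over both sexes and between stages had sex as a covariate. Levels are CPM from a single TMM scaling over all libraries, and exon lengths came from GENCODE M39. A fold against a group without reads is a lower bound from a floor of 3 counts per library. The floor covers counting error only. No source says that libraries of a group came from separate animals, so the p-values measure the spread between libraries. No libraries of a group agreed within sampling noise (chi-square per gene 7.81 or more).

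Alternatives were DESeq2 1.42.0, DESeq2 size factors, no filter, one fit over all groups, a replicate block and each library left out. Replicate numbers did not pair the libraries. The members and lists were chosen with earlier results of these data known. Named in each comparison were the called members by size of change, up to 10 in each direction, or, where none was called, members among the 3 with the smallest p, and Kcnd2. Further members were chosen after their values were seen. Some genes are not reported here.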

Additional observations from a re-analysis of the deposited data

Results flagged for a closer look

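In groups of 4 libraries, 199 combinations of a member and a group were checked for a library far from the other 3 by Dixon's criterion, which chance meets in about 1 of 20. It was met in 12. At the low end were Kcnh1 in the third WT E19 female (0.509 CPM, others 2.46 to 2.51), Kcnj11 in the second Cux2 KO E19 female (22.6 CPM, others 36.3 to 38.1) and Kcnk2 in the second Cux1 KO E19 female (79.4 CPM, others 90.4 to 92.3). The first Cux1 KO E19 male was high for Kcnj2 (13.5 CPM, others 3.73 to 4.03) and for Kcnj4 (2.04 CPM, others 0.124 to 0.315). The fourth Cux2 KO E19 female was high for Kcnk3 (7.87 CPM, others 3.20 to 3.69) and for Kcnn4 (1.54 CPM, others 0.723 to 0.809), and the first for Kcnma1 (27.6 CPM, others 16.7 to 18.3). Among WT E19 libraries the second male was high for Kcnj16 (2.67 CPM, others 0.816 to 0.931), the first male for Kcnt1 (5.59 CPM, others 2.65 to 2.98) and the fourth female for Kcnk9 (14.0 CPM, others 1.72 to 3.06). Kcns1 was high in the second Cux1 KO E19 female (1.87 CPM, others 0.169 to 0.458).

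The log2 difference of Kcnv1 between Cux1 KO L2/3M and WT had opposite signs at the different stages, and passed at neither. By edgeR it was -1.17 at E19 (adjusted p = 0.14), where every Cux1 KO library was below every WT library, and 2.01 at P4 (SE 1.02, adjusted p = 0.32), where the 2 Cux1 KO libraries, at 21.3 and 42.3 CPM, were above the 3 WT libraries, at 8.87, 1.14 and 13.5 CPM. The difference between the stages was not tested, and stage, allele and sequencing round cannot be told apart there.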

How the results depend on the processing

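Of 1458 alternative values for 96 log2 fold changes of single members, 1349 kept their direction and side of the threshold, 66 no longer passed, 42 newly passed and 1 changed sign: Kcnd2 between WT P4 and E19 was -0.0731 without the second WT P4 female, and 0.34 without the third. The count of members called between WT P4 and E19 was 22 and ranged from 20 to 26 with single libraries left out. A fit of all groups together called 33 there and 9 between P7 and P4, and 11164 and 1595 genes in all. Between P7 and P4 the replicate block called 1 and single libraries left out gave 0 to 3. With all groups of the stage in one fit, 7 members were called for Cux1 KO against WT in P4 males, 7 between the mutants in P4 males and 0 between the mutants in E19 females. Over all genes that fit called 2597, 2021 and 34, in the same order. DESeq2 called 10 for Cux1 KO against WT in P4 males, 13 between the mutants in P4 males, 3 between the mutants in E19 males, 1 for Cux1 KO in E19 males, 1 for Cux2 KO by sex at P4 and 1 for WT sex by stage. Over all genes it called 2273, 2617, 323, 73, 273 and 436 in these comparisons, in the same order. Without a filter on low counts there were 1 for Cux1 KO in E19 males, 2 for Cux1 KO in both sexes, 3 between the mutants in E19 males and 0 between them in P4 males. Single libraries left out gave 0 to 1 for Cux1 KO in P4 males, 0 to 2 for Cux1 KO in both sexes at E19, 1 to 5 between the mutants in E19 females, 0 to 1 in E19 males and 0 to 10 in P4 males, and 0 to 2 for sex by stage. Where this left 1 library in a group, that library was assumed to vary like the others. The causes were not tested.

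The replicate block called 1 member between the mutants in E19 females and 0 in P4 males. The replicate numbers did not pair the libraries: of 25 pairs of groups with 3 or more shared numbers, 0 had every correlation over 0.1, and mean correlations ran from -0.17 to 0.15. Counts of few reads limit the low-level members, and 17 of 69 had too few to be tested between P4 and E19.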
